A study of Homo sapiens with 6 samples.

Results

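The endothelin system was examined through 7 genes. They encode the ligand precursors (EDN1, EDN2 and EDN3), the 2 receptors (EDNRA and EDNRB) and the 2 converting enzymes (ECE1 and ECE2). The genes were selected by name as one family around EDN1, which was itself chosen on its lower values with celecoxib in these same 6 arrays. The contrast of celecoxib with control therefore supports nothing about these genes, and their differences are given as a description with no test. Of the 7 genes, 6 had a transcript cluster (the unit that the array summarises to a single value) annotated to 1 gene symbol, among 18417 such genes in all, and each of the 6 had 1 cluster. EDNRA was not analysed here.

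AGS is an established human cell line derived from a gastric carcinoma. In 3 arrays, labelled celecoxib, the cells had been exposed for 24 h to 20 µM celecoxib, an inhibitor of the prostaglandin-forming enzyme cyclooxygenase-2. The other 3 were labelled as controls without treatment. The drug stock was made in DMSO. Addition of this solvent to the controls was not given in the sources used here. All cells had first grown for 48 h after seeding. The labels call the 3 arrays of a group biological replicates but also mention pooling of the RNA, so the spread between arrays, which is all that a p-value measures here, may be partly technical. Values are log2 expression, on which a difference of 1 is 2-fold.

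Endothelins are short peptides that act on neighbouring cells. Each is cut from a longer precursor, first by furin-type proteases and then by an endothelin-converting enzyme. Endothelin-1, from EDN1, is best known as a constrictor of blood vessels released by the endothelium, and many carcinoma cells also make it. The receptors ETA (EDNRA) and ETB (EDNRB) are coupled to G proteins that raise intracellular calcium through phospholipase C, and ETB also clears the peptide. The output of endothelin-1 is known to be set largely at transcription, and its messenger is short-lived.

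Array medians were 6.75 to 6.82 (log2). Along the main axis of variation, a principal component with 40.4% of the variance, celecoxib 1 (39.8) and control 2 (-28.0) lay at the ends and the groups were mixed. In the fit over all genes, 14 of 18417 (0.0760%) were higher and 12 (0.0652%) lower with celecoxib at a limma adjusted p under 0.05. Rescaling the arrays to equal medians gave 18 higher and 10 lower. The count of 26 became 5 without control 3 and 1 without celecoxib 1. With any other array left out limma called 0 genes, and 1293 to 2353 genes had an unadjusted p under 0.05.

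The cell type was read from 7 markers of epithelium, all measured, which do not single out gastric cells. Their means over the 6 arrays ran from 7.92 (CDH1) to 12.5 (KRT8), all above the median cluster level of 6.79. Their summed linear level was 18299 to 18805 in the controls and 17101 to 17487 with celecoxib, lower in every celecoxib array. A linear sum weighs the brightest genes most, here KRT8 (difference -0.16) and KRT18 (-0.21). Of the 7 markers 5 were lower and 2 higher, EPCAM by 0.004 and CLDN4 by 0.09. Groups did not overlap in 1, KRT18, as in 7.95% of all genes in that direction. Since EDN1 is known as an endothelial product, 9 endothelial markers were read as well. Their means ran from 5.08 (PECAM1) to 7.29 (CLDN5), and CLDN5 was the 1 marker of the 9 above that median level. The summed level of the 9 was 521 to 554 in the controls and 494 to 566 with celecoxib, so the groups overlapped. The sums also overlapped for 9 markers of fibroblasts and smooth muscle (803 to 859 and 755 to 828) and for 3 measured of 5 of the neural crest lineage (294 to 314 and 286 to 315). For the 4 measured of 5 leukocyte markers they were 12722 to 13644 and 13676 to 13931, higher in every celecoxib array. Nearly all of that sum was LYZ (lysozyme, mean 13.7), which gastric epithelium also makes. Outside epithelium and endothelium, the markers above the median level of 6.79 were COL1A1 (7.68), DES (7.41), SOX10 (7.19), MITF (6.83), CD68 (8.13) and LYZ. CD68 lay above CDH1. By limma, 0 markers of the 5 lists were called, and 2 had an unadjusted p under 0.05. The part of any of these markers in the values of the endothelin genes was not tested. Normalised array values have no 0, so background signal and low expression cannot be told apart.

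EDN1 encodes the precursor of endothelin-1. Its log2 values were 9.00, 8.87 and 8.99 in the controls and 8.02, 7.85 and 7.75 with celecoxib. The groups were far apart, with a gap of 0.85 between the lowest control and the highest celecoxib array. Against the control mean, the celecoxib arrays stood at 52.2%, 46.6% and 43.4%. The group means were 8.96 ± 0.07 and 7.88 ± 0.13 (SD, n = 3 each), a difference of -1.08 ± 0.09 (SE of the fit), or 2.12-fold lower. In cells read in bulk, fewer EDN1-expressing cells and less EDN1 messenger per cell cannot be told apart. The difference ranged from -1.15 to -1.02 when single arrays were left out, and was -1.15 without celecoxib 1. It was -1.04 with array medians set equal, -1.09 with repeated quantile normalization and -1.10 with cyclic loess.

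**Figure D1:**
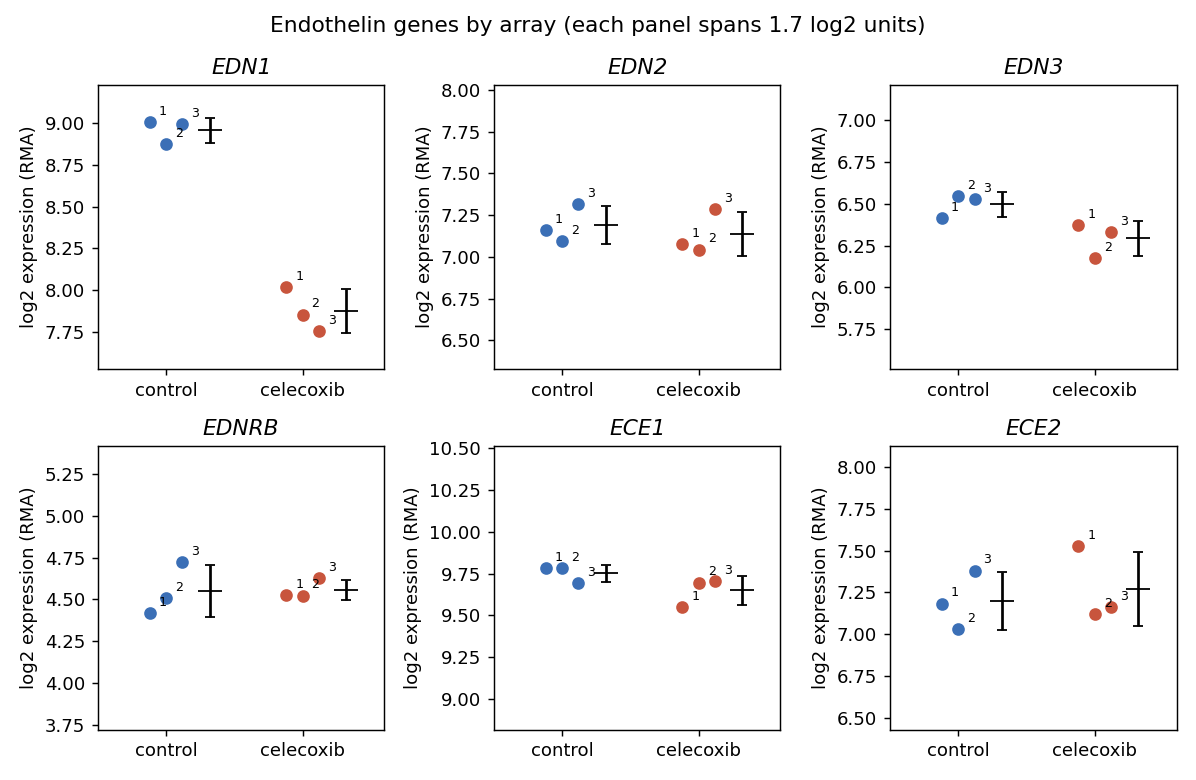
Log2 expression of the 6 measured endothelin genes in each array, with control arrays in blue, celecoxib arrays in red, replicate numbers beside the points, and the group mean with its SD in black. All panels span the same number of log2 units; only in EDN1 do the groups stand clearly apart, at 8.87 to 9.00 and 7.75 to 8.02, while those of EDN3 are separated by 0.04 and the other genes overlap.

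EDN2 encodes the precursor of endothelin-2, which binds both receptors as endothelin-1 does. The control arrays read 7.16, 7.10 and 7.31 and the celecoxib arrays 7.08, 7.04 and 7.29. The groups overlapped almost completely, and replicate 3 was the highest array in each. The difference was -0.05 ± 0.09 (SE), with a 95% interval from -0.27 to 0.16. On the linear scale that interval runs from 83.0% to 112% of the control level, well above the 47.3% at which EDN1 stood.

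EDN3 encodes the precursor of endothelin-3, which prefers ETB and is known for its role in neural crest development. Its values were 6.41, 6.55 and 6.53 in the controls and 6.37, 6.18 and 6.33 with celecoxib. All celecoxib values lay below all controls, but only by 0.04, less than the SD of either group (0.07 and 0.10). The difference was -0.20 ± 0.08 (SE, 95% interval from -0.39 to -0.02), or 1.15-fold lower. It ranged from -0.24 to -0.14 when single arrays were left out. With array medians set equal, or with quantile normalization repeated, the groups overlapped.

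Of the 6 measured genes, EDN1 and EDN3 had groups that did not overlap, both lower with celecoxib. Over all genes, 7.95% did not overlap in that direction and 11.1% in the other. With array medians set equal these shares were 4.54% and 15.1%, and EDN1 was then the 1 member without overlap. ECE1 was a further gene without overlap, lower with celecoxib, after repeated quantile normalization and after cyclic loess. EDN1 entered by this same contrast, so nothing is read from the count.

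The promoter of EDN1 is shown because its control elements are well described in other cells, and that of EDN2 because this ligand had no comparable difference. RefSeq (GRCh38.p14) windows reach from 250 bases before a transcript start to 50 bases after it. Windows were found for 5 of the 7 genes, 11 in all, with 3 starts for EDN1. The 250 bases before the start are printed for the most downstream EDN1 start, on the plus strand of chromosome 6 (chr6:12290111-12290360), and for the EDN2 start, on the minus strand of chromosome 1 (chr1:41484684-41484933). Both run 5′ to 3′ in the direction of transcription, with capitals for matches to any of the 6 motifs searched.
EDN1 start 3: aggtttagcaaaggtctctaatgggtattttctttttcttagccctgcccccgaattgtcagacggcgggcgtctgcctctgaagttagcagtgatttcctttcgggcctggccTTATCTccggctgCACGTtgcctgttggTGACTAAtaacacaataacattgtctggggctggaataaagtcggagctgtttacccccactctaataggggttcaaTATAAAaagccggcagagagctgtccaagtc
EDN2 start 1: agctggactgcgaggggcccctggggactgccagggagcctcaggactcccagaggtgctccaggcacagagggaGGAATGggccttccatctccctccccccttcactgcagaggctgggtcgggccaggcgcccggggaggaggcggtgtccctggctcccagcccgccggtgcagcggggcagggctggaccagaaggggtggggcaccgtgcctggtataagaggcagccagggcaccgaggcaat

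The motifs were searched on both strands of the whole 300-base windows. They were the TATA box (TATAAA), a site of AP-1, the dimer of FOS and JUN proteins (TGACTNA), the cyclic AMP response element CRE (TGACGTCA), a site of GATA factors (AGATAA), the core of hypoxia-inducible factor sites (ACGTG) and a TEAD site (GGAATG). The printed EDN1 window had 4 of the 6, the most of the 3 EDN1 windows. AP-1, GATA and hypoxia-inducible factors are already known to act on this promoter, so such matches were likely beforehand. Nothing is read from their number, and a link between matches and the differences with celecoxib was not tested. Counting from the start site, they were GATA at -136 on the opposite strand, the hypoxia core at -123 on the opposite strand, AP-1 at -108 and the TATA box at -31. EDN1 start 1 had the hypoxia core alone, at -240 and -93, and start 2 had a TEAD match at -129 and an AP-1 match at -117. The EDN2 window had 1, a TEAD match at -175, so the difference in number from EDN1 depends on the start compared. Near its end the printed EDN2 sequence holds tataag, which differs from TATAAA only in the last base. The exact search does not count it, so the missing match does not show that EDN2 lacks a TATA box. In EDNRB, start 1 had the hypoxia core at -196, and start 2 had it at -136 and -114 beside a TEAD match at -77. Of 35116 promoter windows of this length, 11.5% held the TATA box, 11.7% the AP-1 motif, 10.3% the GATA motif, 21.4% the hypoxia core, 14% the TEAD motif and 1.85% the CRE. A match describes the letters and is not a measured site. The 4 windows of ECE1 and the window of EDNRA had none of the 6 motifs, which says only that those letters are not in those windows.

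**Figure D2:**
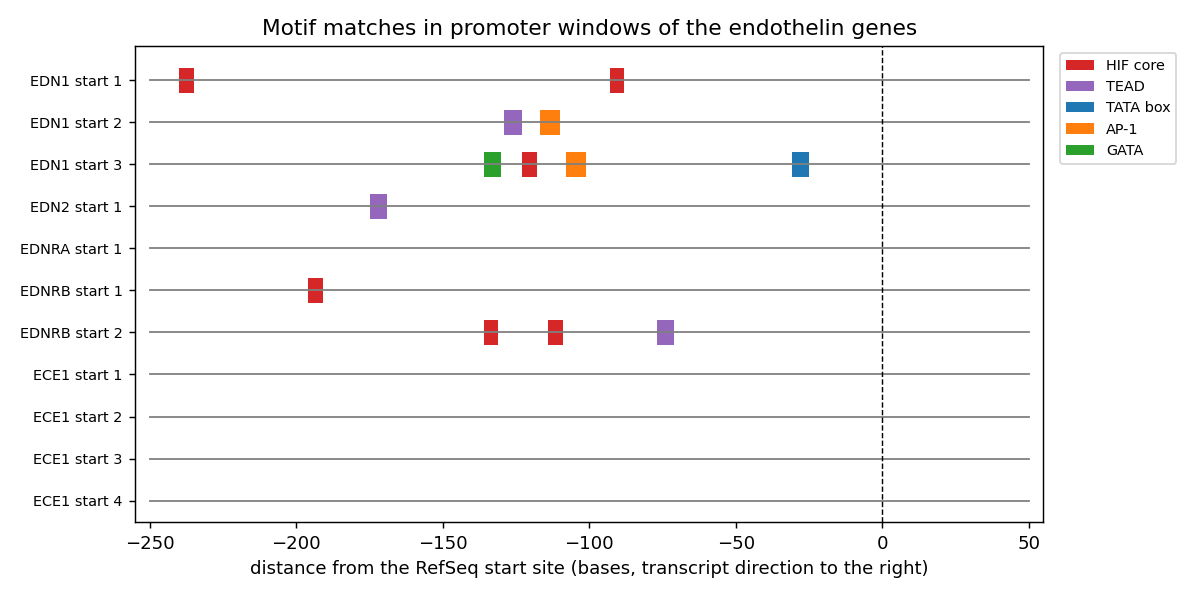
Matches to the searched motifs in the 11 RefSeq promoter windows of EDN1, EDN2, EDNRA, EDNRB and ECE1, by distance in bases from each start site (dashed line); each coloured bar is a match on either strand. The third EDN1 start carries 4 kinds of match between -136 and -26, and the CRE was matched in no window shown.

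EDNRB encodes ETB. Its cluster was dim, with 4.42, 4.51 and 4.72 in the controls and 4.52, 4.52 and 4.63 with celecoxib. The celecoxib values all lay inside the control range. The difference was 0.01 ± 0.09 (SE), with a 95% interval from -0.20 to 0.22. The mean of 4.55 lies under 5.04, the level below which the dimmest 20% of clusters fall, so a change of the receptor at low expression could go unseen.

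ECE1 encodes the main endothelin-converting enzyme, a zinc protease of the cell surface and of intracellular membranes. The controls read 9.78, 9.78 and 9.69 and the celecoxib arrays 9.55, 9.70 and 9.70. Celecoxib 1 was the lowest of all, and the other 2 celecoxib arrays lay at the level of control 3. The difference was -0.10 ± 0.07 (SE, 95% interval from -0.28 to 0.07), and -0.05 without celecoxib 1.

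ECE2 encodes a related enzyme with an acidic optimum. Its values were 7.18, 7.03 and 7.38 in the controls and 7.53, 7.12 and 7.16 with celecoxib. The groups overlapped, with celecoxib 1 as the highest array. The difference was 0.07 ± 0.13 (SE, 95% interval from -0.23 to 0.37) and turned to -0.06 without celecoxib 1. Of the 5 RefSeq messengers annotated to this cluster, 3 belong to ECE2. The others belong to the upstream gene EEF1AKMT4 and to the read-through transcript EEF1AKMT4-ECE2, so the value is not of ECE2 alone. For the other 5 measured genes, all annotated RefSeq messengers belonged to the gene itself.

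**Figure D3:**
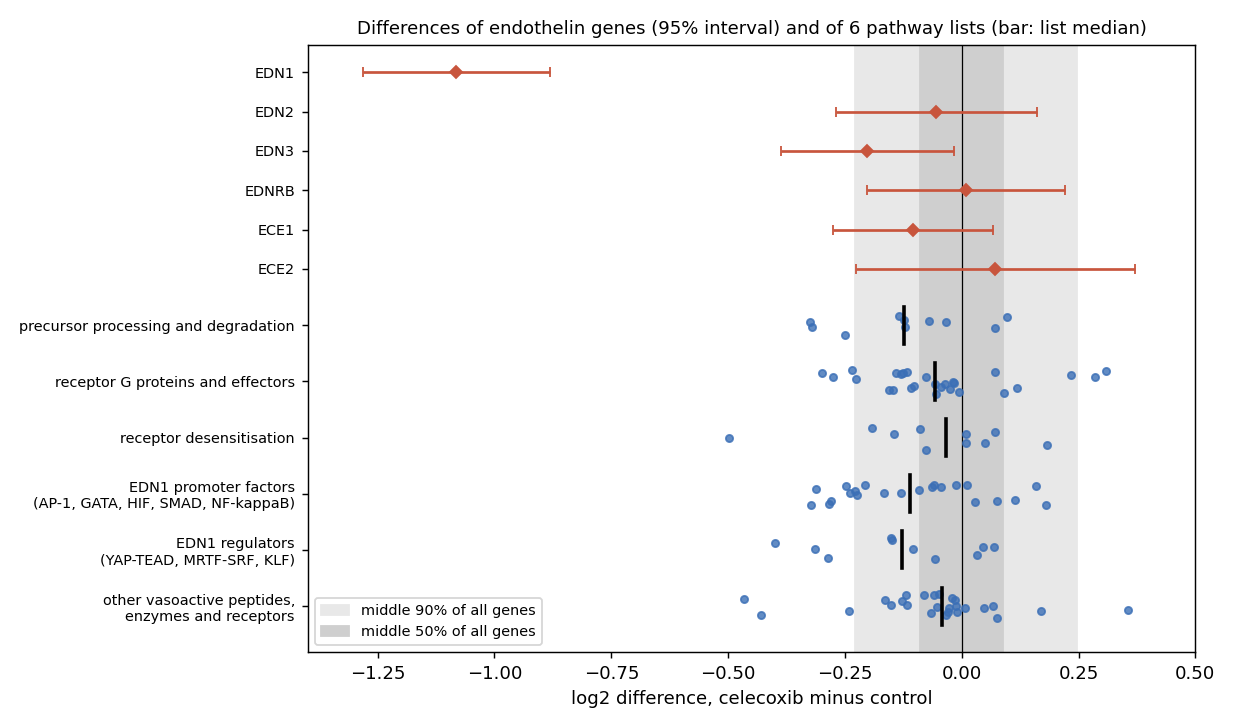
Log2 difference, celecoxib minus control, of the 6 measured endothelin genes (red diamonds, bars are 95% intervals of the fit) and of the genes in 6 pathway lists (blue points, black bar for the list median). The shaded bands hold the middle 50% (-0.09 to 0.09) and 90% (-0.23 to 0.25) of all 18417 genes. EDN1, which was chosen on this contrast, lies at -1.08, far to the left of every other point.

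A list of transcription factors known to act on the EDN1 promoter in other cells was then read from the arrays. It is wider than the motifs searched, which included none for ETS, SMAD or NF-kappaB proteins. The list held 22 genes of AP-1, GATA, hypoxia-inducible, SMAD, NF-kappaB and other factors, all measured. Of these, 16 were lower and 6 higher with celecoxib, with a median difference of -0.11 against -0.01 over all genes, and -0.07 without celecoxib 1, the array at one end of the main axis. By limma, 0 passed an adjusted p of 0.05 over all genes, and 7 had an unadjusted p under 0.05, all lower. ETS1, an ETS family factor, differed by -0.28 ± 0.07 (SE, adjusted p = 0.264), JUN, the AP-1 subunit, by -0.32 ± 0.12 (0.374) and SMAD3, a transducer of TGF-beta signals, by -0.31 ± 0.12 (0.411). Groups did not overlap in 5 of the 22 with lower values, JUN and ETS1 among them, and in 2 with higher values. Over all genes these shares were 7.95% and 11.1%. Without celecoxib 1 JUN differed by -0.20, SMAD3 by -0.21 and ETS1 by -0.27.

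A list of regulators tied to the actin cytoskeleton and to flow held YAP, TAZ, the TEAD factors, the MRTF-SRF pair and the KLF factors. Of its 11 genes 10 were measured, 7 lower and 3 higher, with a median of -0.13 that was -0.06 without celecoxib 1 and likewise without control 2. By limma, 0 passed over all genes and 2 had an unadjusted p under 0.05. SRF, serum response factor, differed by -0.40 ± 0.13 (SE, adjusted p = 0.357), TEAD3 by -0.31 ± 0.13 (0.421) and TEAD1 by -0.29 ± 0.15 (0.492). Without celecoxib 1 these were -0.26, -0.17 and -0.13. KLF2, known to repress EDN1 in endothelium under flow, stood at 0.07 ± 0.07 (0.731).

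Processing of the precursors and degradation of the peptides shared a list of 10 genes, 8 of them lower and 2 higher, with a median of -0.12. By limma, 0 passed over all genes and 3 had an unadjusted p under 0.05. These were the proprotein convertases PCSK5 (-0.25 ± 0.09, adjusted p = 0.362), FURIN (-0.32 ± 0.12, 0.370) and PCSK6 (-0.32 ± 0.13, 0.422). Without celecoxib 1 they differed by -0.19, -0.19 and -0.21. MME (neprilysin), which degrades endothelins, differed by -0.13 ± 0.07 (0.488), but its cluster was dim (mean 4.50).

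Downstream of the receptors, 27 genes of G proteins and their effectors were measured, 21 lower and 6 higher, with a median of -0.06. Without celecoxib 1 the split was 14 lower and 13 higher. By limma, 0 passed over all genes and 3 had an unadjusted p under 0.05, all higher. They were the phospholipases PLCB1 (0.31 ± 0.07, SE, adjusted p = 0.216) and PLCB4 (0.29 ± 0.09, 0.322), and the calcium release channel ITPR2 (0.23 ± 0.09, 0.386). Of the 27, groups did not overlap in 5 with higher values and in 1 with a lower value. Over all genes these shares were 11.1% and 7.95%. The 5 included ITPR1 and the 3 genes above, which were named for a small p. Like these 3, the other phospholipase and channel genes of the list were not called. PLCB2 stood at -0.14 ± 0.08, PLCB3 at -0.12 ± 0.08, ITPR1 at 0.12 ± 0.07 and ITPR3 at -0.11 ± 0.15. Without celecoxib 1 PLCB1 differed by 0.27, PLCB4 by 0.34 and ITPR2 by 0.31. Of the kinases, arrestin and RGS proteins that end receptor signalling, 10 of 11 were measured, 5 higher and 5 lower, with a median of -0.03. That median became 0.002 with array medians set equal, and -0.04 with repeated quantile normalization or cyclic loess. The receptor kinase GRK3 differed by -0.50 ± 0.13 (adjusted p = 0.267, and -0.35 without celecoxib 1) and GRK2 by -0.19 ± 0.11 (0.521), while RGS5 stood at 0.18 ± 0.09 (0.462). By limma, 0 of the 10 passed and 1, GRK3, had an unadjusted p under 0.05.

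Other vasoactive peptides with their enzymes and receptors were read as well. Of 29 genes 26 were measured, 20 lower and 6 higher, with a median of -0.04. With array medians set equal, which raised every difference by 0.04, the split was 13 and 13. It was 18 lower and 8 higher with repeated quantile normalization, and likewise with cyclic loess. Without celecoxib 2 it was 12 lower and 14 higher, and without celecoxib 1 or celecoxib 3 it stayed at 20 lower and 6 higher. By limma, 0 passed over all genes and 3 had an unadjusted p under 0.05. NPPB, the precursor of brain natriuretic peptide, differed by -0.43 ± 0.08 (adjusted p = 0.128), the kinin receptor BDKRB1 by -0.47 ± 0.14 (0.314) and KNG1, the kininogen, by 0.36 ± 0.15 (0.428). The KNG1 cluster was dim (mean 4.64) and its groups overlapped. NPPB passed the threshold with array weights (limma adjusted p = 0.0364), the 1 pathway gene to do so under any alternative run, and its difference was -0.42 without celecoxib 1.

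Across the 6 lists, 105 of 110 genes were measured, and 0 of them were called, beside 0.0760% higher and 0.0652% lower over all genes. An unadjusted p under 0.05 was found in 19 of the 105 (18.1%), against 11.3% of all genes. Groups did not overlap in 18 genes with lower values (17.1%) and 7 with higher values (6.67%), where all genes gave 7.95% and 11.1%. With array medians set equal the counts among the 105 were 10 lower and 7 higher, where all genes gave 4.54% and 15.1%. With repeated quantile normalization they were 23 and 7, where all genes gave 7.79% and 10.3%. With cyclic loess they were 25 and 8, where all genes gave 8.5% and 10.1%. The lists were chosen with results of these arrays known, so these counts are descriptions.

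Genes whose 6 values most resembled those of EDN1 were found by Pearson's r over the 6 arrays, among 15053 genes. The 10 highest were PDLIM1, MMD, POLD2, HMGCS1, MSN, EFTUD2, SOCS2, CEP55, KLK9 and STS, with r from 0.990 to 0.996. PDLIM1 is a LIM protein of actin fibres, MSN (moesin) links actin to the membrane, HMGCS1 is an enzyme of cholesterol synthesis and SOCS2 a suppressor of cytokine signals. Their differences were smaller than that of EDN1, from -0.11 (EFTUD2) to -0.50 (HMGCS1). Over 2 groups such an r rests mainly on the difference between them. Within groups, on deviations from the group means of the same 6 arrays, r was between 0.62 (SOCS2) and 0.96 (PDLIM1). The 10 genes were picked for a high r over these arrays, which favours a high r within groups, so nothing is read from it.

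The 5 lowest r, from -0.994 to -0.988, were those of VPS13B, TSBP1-AS1, CADPS2, ATP2B1 and DHRS2. ATP2B1 is a calcium pump of the plasma membrane, and CADPS2 takes part in the release of peptide-filled vesicles. Their differences ran from 0.16 (TSBP1-AS1) to 0.58 (CADPS2). In all, r was above 0.95 for 99 genes, and as far below 0 for another 99, 0.658% each.

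**Figure D4:**
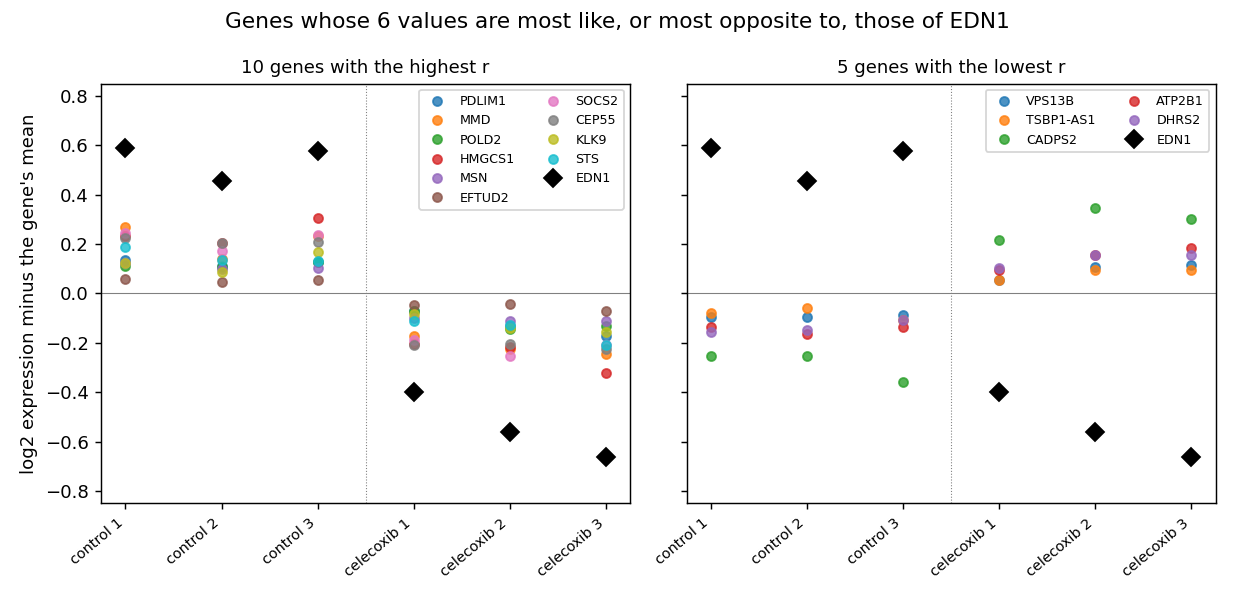
Log2 expression in each of the 6 arrays, minus the gene's own mean, for EDN1 (black diamonds) beside the 10 genes with the highest r (left) and the 5 with the lowest (right). All 15 genes separate the groups as EDN1 does, which follows from their choice by r over these same arrays. The left ones are lower and the right ones higher with celecoxib, and the sizes are smaller than for EDN1.

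The measured protein-coding neighbours of EDN1 on chromosome 6, 3 on each side, were chosen by position after the data had been seen. Nearest to EDN1 are HIVEP1, which differed by 0.01 ± 0.08 (SE), and PHACTR1, a regulator of actin and phosphatase 1, at 0.03 ± 0.12. ADTRP, a dim cluster (mean 5.00), stood at 0.03 ± 0.10, GFOD1 at -0.15 ± 0.08 and SIRT5 at 0.04 ± 0.07. NEDD9, a scaffold of focal adhesions and the farthest of the 3 on its side, read 8.72, 8.76 and 8.63 in the controls and 8.07, 8.20 and 8.21 with celecoxib. Its groups did not overlap, with a difference of -0.54 ± 0.08 that just missed the threshold over all genes (limma adjusted p = 0.0517). For the genes on either side of EDN1, the 95% intervals were -0.18 to 0.19 (HIVEP1) and -0.26 to 0.31 (PHACTR1). EDN1 itself stood at -1.08. A change shared along this region was not tested.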

How the data were processed

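RNA of 3 control and 3 celecoxib samples was read on Affymetrix HuGene-1_0-st arrays, from 250 ng of total RNA each. The deposited table holds log2 values, which the authors made with RMA in Affymetrix Expression Console 1.1, per the submitters' processing notes. The number of arrays limits the precision, and scan batches were not given in the sources used here. Of 33297 transcript clusters, 19460 had 1 gene symbol, 1754 several and 12083 were unnamed here. Clusters with 1 symbol were kept, and the highest mean over 6 arrays chose among several, leaving 18417 genes. Members' levels were not ranked against each other; a cluster is called dim where its mean lies under the level of the dimmest 20%.

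Groups were compared with lmFit and eBayes of limma 3.58.1 (R 4.3.3), two-sided, with Benjamini-Hochberg adjustment over all 18417 genes and a threshold of 0.05. Differences are celecoxib minus control. The script was tested on simulated data. The 7 members and the lists were chosen with earlier results of these data known. Genes named were the members, the 3 of each pathway list with the smallest p, the 10 highest and 5 lowest r with EDN1, and neighbours of EDN1. The ranking by r left out the members, the dimmest 20% of clusters and some symbols by their letters. These symbols began with LOC, LINC, FAM, KIAA, TMEM, OR and a digit, SNOR, RNU or MIR, or held orf. Characterised genes, such as olfactory receptors, are among them. MME, KLF2, PLCB2, PLCB3, ITPR1, ITPR3 and the markers were named outside that rule, after their values were seen. Promoter windows are RefSeq's (GRCh38.p14). Alternatives were other normalizations, signal filters, variance priors, array weights, a replicate block and leaving out each array. Figures used matplotlib 3.10.9 in Python 3.11.15.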

Additional observations from a re-analysis of the deposited data

How the results depend on the processing

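The differences of EDN1, EDN3 and ECE1 kept their sign in all 12 alternatives run for each, and those of EDN2, EDNRB and ECE2 in 10, 9 and 10. All moved by less than the larger of the gene's group SDs. Some moved by more than the smaller SD. With array weights EDNRB went from 0.01 to 0.13, where its SD was 0.16 in the controls and 0.06 with celecoxib. With single arrays left out, EDN2 ranged from -0.13 to 0.01, EDNRB from -0.06 to 0.10, ECE1 from -0.13 to -0.05 and ECE2 from -0.06 to 0.16. The 26 genes past the threshold became 40 with repeated quantile normalization, 47 with cyclic loess, 76 among genes above the median signal, 53 without the dimmest 20%, 69 with an intensity trend in the prior and 177 with array weights. They were 0 to 5 with 1 array left out. The cause of these shifts was not tested. Pathway genes past the threshold stayed at 0, except for 1 (NPPB) with array weights. Genes without overlap rose from 3507 to between 4719 and 6010 with 1 array left out, where fewer values are compared. With the replicate number as a block, limma called 0 genes, 2448 having an unadjusted p under 0.05. Same-numbered arrays deviated together with r of -0.02, 0.49 and 0.01 across genes, so the numbers were not taken as a pairing. Scanner files were not used here, so the dim EDNRB cluster has no measured background beside it.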
